A study of Mus musculus with 9 samples.

Results

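The nuclear genes of oxidative phosphorylation were examined in cortex of embryonic mice (strain C57BL/6J, E18.5) of 3 Cyfip2 genotypes. The Cyfip2 protein belongs to the WAVE complex, which controls branched actin. They were wild type (WT), Cyfip2 heterozygotes (Het) and Cyfip2 homozygous mutants (KO), with 3 RNA sequencing libraries each, named WT1 to WT3, Het1 to Het3 and KO1 to KO3. The labels do not describe the mutant allele and give no treatment. Whether each library is a separate embryo is not given, so the tests rest on the variation among these libraries. By their sex, Het and KO each hold more than 1 embryo. Genes were taken by symbol: Nduf genes of the a, b, c, s and v series, Sdha to Sdhd, Uqcr genes, Cox4 to Cox8 genes and Atp5 genes. The symbols matched 87 rows. Of these, 5 were pseudogenes and 3 had a mean normalized count under 10, which left 79 of the 18820 genes in the table. They comprised 37 genes of complex I, 4 of complex II, 8 of complex III, 13 of complex IV and 17 of complex V. All 79 were among the 15069 genes tested.

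The 5 complexes sit in the inner mitochondrial membrane. Complexes I and II pass electrons from NADH and succinate to ubiquinone, complex III passes them to cytochrome c, and complex IV passes them to oxygen. Complexes I, III and IV pump protons, and complex V, the ATP synthase, uses the returning protons to make ATP. The mitochondrial genome encodes a few core subunits of every complex but II, and the nucleus encodes the rest. In neurons this pathway pays most of the cost of ion pumping and synaptic transmission. Grouping by symbol has known limits: Ndufa4 and its paralog Ndufa4l2 fall under complex I by name, although NDUFA4 protein is a subunit of complex IV. Cox7a2l is a factor of respiratory supercomplexes, and Atp5s is not a core part of the ATP synthase.

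The promoters of these genes are shown first because NRF1 and the ETS factor GABPA are well known shared regulators of respiratory genes. RefSeq promoter windows (GRCm38.p6) from 250 bases before to 50 after the start were matched for 65 of the 79 genes, which gave 70 windows. The NRF1 core GCGCATGC, searched on both strands, was present in 14.3% of the members' windows, in 4.70% of windows of the genes tested and in 2.71% of all windows. The ETS motif CCGGAAG was present in 22.9%, 15.4% and 8.86%, and the YY1 core AAGATGG in 15.7%, 6.47% and 6.34%. The GC box GGGCGG was present in 40%, 60.4% and 35.7%, and G+C content was 57.9% in the members and 60.4% in the genes tested. These shares are descriptions, with no test. Of the 10 members with an NRF1 core, 7 are printed 5′ to 3′ on the gene's strand, with the core (on either strand, both where the palindromic copies overlap) in capitals. The last line is Cox6b1, the member with the smallest unadjusted p in KO against WT, with an ETS motif in capitals.
Ndufa11 (complex I, plus strand, chr17:56717692-56717721): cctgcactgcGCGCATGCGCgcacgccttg
Ndufa6 (complex I, minus strand, chr15:82354357-82354384): ccgcggtagaGCATGCGCattgcagagc
Sdhb (complex II, plus strand, chr4:140961207-140961234): agcccagtggGCATGCGCcctacgggcc
Cox6a1 (complex IV, minus strand, chr5:115349101-115349130): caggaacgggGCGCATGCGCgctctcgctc
Atp5g2 (complex V, minus strand, chr15:102671070-102671099): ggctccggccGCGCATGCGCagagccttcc
Atp5k (complex V, minus strand, chr5:108434430-108434459): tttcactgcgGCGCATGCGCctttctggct
Atp5l (complex V, minus strand, chr9:44920965-44920992): aaccaataacGCATGCGCatttccccca
Cox6b1 (complex IV, minus strand, chr7:30626126-30626152): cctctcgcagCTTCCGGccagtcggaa
The NRF1 cores lie in genes of complexes I, II, IV and V here, and those of Uqcrc1 and Uqcr11 of complex III and of Ndufa8 are named only.

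Each library's deposited values summed to between 36.03 and 38.56 M (M, mega), and the approximate depth was 29.5 to 54.4 M reads. Cyfip2 was at 10169 to 11174 normalized counts in WT, 8969 to 9882 in Het and 7522 to 8255 in KO. Markers of cortical excitatory neurons were present in every library (7 of 7 in the table, none at 0), with Tbr1 between 8835 and 11543. The libraries also differed in neighbouring tissue and sex. Cdhr1, of olfactory bulb mitral cells, was between 2138 and 3436 in WT3, Het1, KO1 and KO2 and at most 53.1 elsewhere. Tbx21, another bulb marker, followed Cdhr1, at 84.2 in WT3, 69.7 in Het1, 48.5 in KO1 and 48.6 in KO2. It was lower in every other library. The remaining bulb markers, some of which cortex also expresses, did not all follow Cdhr1. The sum of all 6, none at 0, ranged from 24529 (WT3) to 27996 in WT and 21144 to 29664 in Het. In KO it ranged from 19461 to 31632. Reln, Lhx2 and Eomes made up most of this sum in every library, so it says little about the difference in Cdhr1 and Tbx21. Summed choroid plexus markers (7 of 7 in the table) ranged from 196 to 3442 in WT, 50.7 to 11684 in Het and 138 to 802 in KO, with Het2 the highest. Folr1 alone among them was listed at 0 in a library. Het1, KO1 and KO2 were female by Ddx3y, which was listed at 0 there. In bulk tissue, fewer cells of a type and less RNA per cell cannot be told apart.

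Levels are compared between genes per kilobase of transcript, as normalized counts divided by the median length of the gene's protein-coding transcripts. In WT the median over members was 2149 per kilobase in complex I, 2155 in complex II, 3418 in complex III, 4867 in complex IV and 4697 in complex V. Atp5b, the catalytic beta subunit of the ATP synthase, was the most abundant member at 15372 ± 565 per kilobase (SD, n = 3). Cox4i1, the ubiquitous form of subunit 4 of cytochrome c oxidase, followed at 10732 ± 603. In complex I the highest was Ndufa4 at 8539 ± 318, and in complex III it was Uqcrh, the hinge protein, at 6709 ± 296. The lowest were isoforms or accessory genes: Cox4i2 at 55.2 ± 6.34 per kilobase, Atp5s at 119 ± 2.32, Cox6b2 at 126 ± 20.9 and Ndufa4l2 at 153 ± 22.1. Atp5b lay above Cox4i1 by more than the SDs of both, while the gap between Atp5s and Cox6b2 was smaller than the SD of Cox6b2. The muscle isoforms Cox6a2 and Cox7a1 had mean normalized counts of 1.14 and 9.30, and Cox7b2 0.961, all under the minimum of 10. Members varied little between libraries: the median SD of log2 values over the 9 libraries was 0.0995 for members, 0.144 for all genes tested and 0.0970 for genes with a mean of at least 1000.

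The members together held between 0.631% (Het2) and 0.703% (Het1) of a library's summed value. To compare complexes by library, each member's log2(value + 1) was set against its WT mean and the median was taken over a complex. Over all 79 members this median was 0.013, 0.0098 and -0.019 in WT1 to WT3, -0.00078, -0.15 and -0.0016 in Het1 to Het3, and -0.034, -0.10 and -0.055 in KO1 to KO3. Het2 stood apart from both other Het libraries, while the medians of all 3 KO libraries lay below those of the 3 WT libraries, KO2 furthest. In Het2, 74 of 79 members lay below their WT mean, against 40 in Het1 and 41 in Het3. In KO1, KO2 and KO3 the counts were 50, 70 and 65. Het2 was the lowest of the 9 libraries for 42 members (53.2%), against 7.53% of all genes tested, and KO2 for 17 members (21.5%), against 16.0%.

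**Figure D1:**
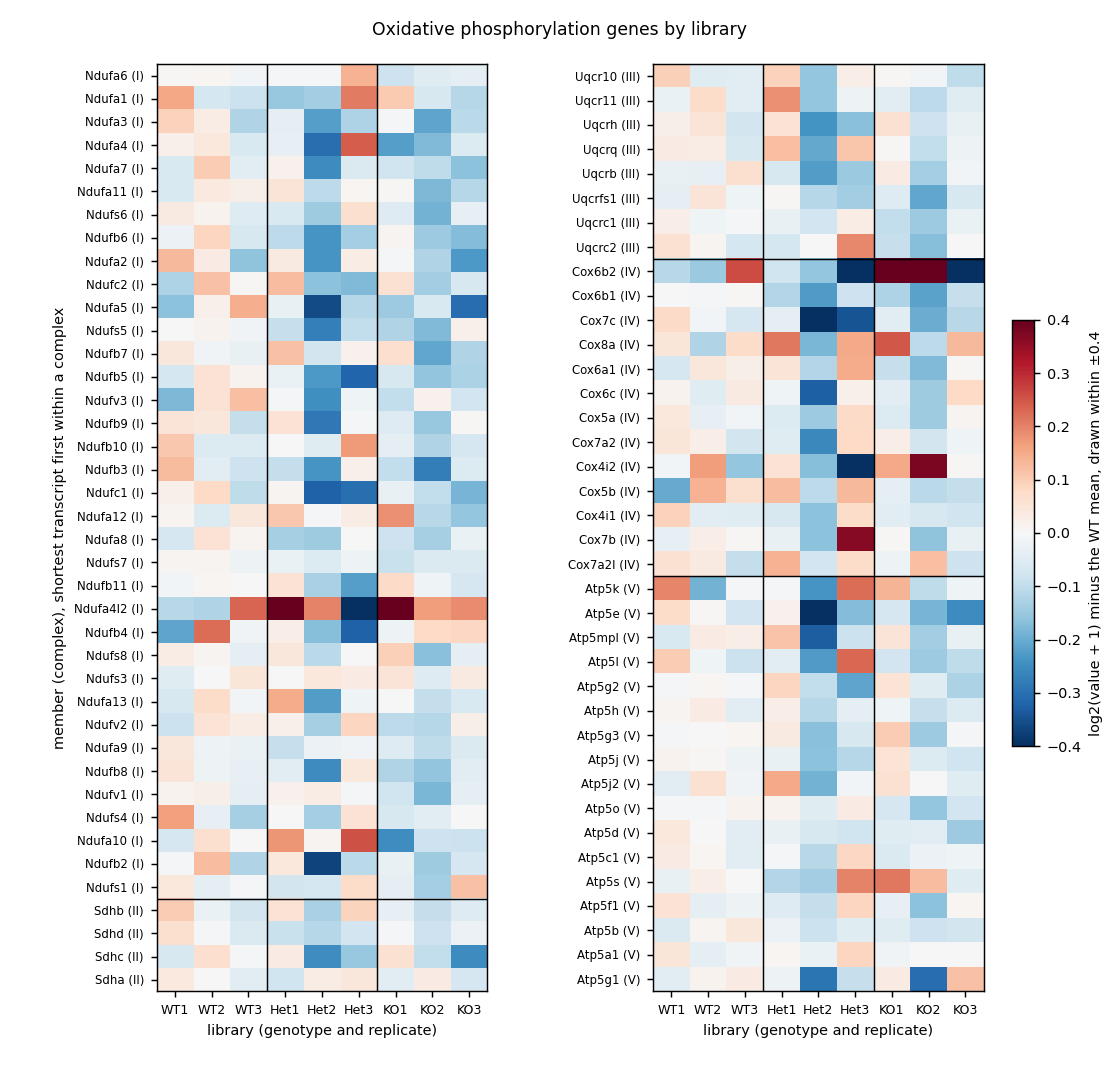
Each row is a member (78 are drawn), ordered by complex and then by transcript length, and each column is a library; colour is log2(value + 1) minus the mean of the 3 WT libraries, drawn within ±0.4. The Het2 column is blue in most rows (74 of all 79 members below the WT mean), as is KO2 (70 of 79), and Cox6b2, Cox4i2 and Ndufa4l2 show the widest swings.

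All 5 complexes were low in Het2: the median was -0.14 in complex I, -0.12 in complex II, -0.15 in complex III, -0.17 in complex IV and -0.14 in complex V. In KO2 the medians were -0.12, -0.089, -0.12, -0.11 and -0.092 in the same order. Within Het2 and within KO2 the complexes lay close together. Het3 was the library in which complexes diverged most among Het libraries, with complex IV at 0.073 and complex V at -0.037. Its high complex IV members included Cox7b, and its low ones Cox7c, Cox4i2 and Cox6b2. The part of choroid plexus content in the Het2 values was not tested. KO1, which shares the bulb marker and the sex of KO2, had complex medians between -0.039 and -0.015. The part of bulb content and of sex in the values of KO1 and KO2 was not tested.

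**Figure D2:**
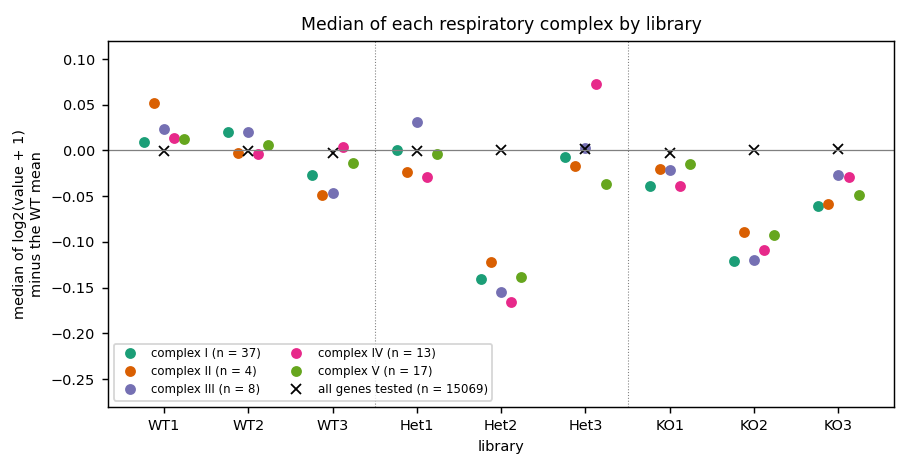
Points give the median over each complex of log2(value + 1) minus the WT mean (vertical axis) in each of the 9 libraries (horizontal axis), and crosses give the same over all 15069 genes tested. All complexes lie between -0.17 and -0.12 in Het2 and between -0.12 and -0.089 in KO2, while the crosses stay near 0.

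In KO against WT, nearly all members had slightly lower values in KO, and none passed the test. Of 79 members, 69 had a log2 fold change below 0, against 51.6% of all genes tested. The median was -0.062 for members and -0.0042 for all genes, and members ranged from -0.17 (Ndufa5) to 0.35 (Ndufa4l2). With limma and Benjamini-Hochberg adjustment, 0 members were called, as were 0.0% of all genes, and no member had an adjusted p below 0.9998. At an unadjusted p under 0.05, 1 member (Cox6b1) was lower, beside 0.637% of all genes, and 0 members were higher, beside 0.544%. Counted in either direction, this 1 member became 0 without WT1, WT2, WT3 or KO2, without the variance trend or with the transcript length trend removed. The count was 3 without KO3 and 8 with sex as a covariate, where the count over all genes went from 178 to 532. No other tool was run. For 13 members every KO library lay below every WT library (16.5%, against 3.3% of all genes), and 0 members lay above throughout, against 3.17%.

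Complex I had a median of -0.075 in KO against WT, with 34 of 37 members below 0. Its 7 core subunits, which carry the flavin and the iron-sulphur clusters, had a median of -0.063 and its 28 supernumerary subunits -0.083, a division made after the values were seen. Ndufv1 (chr19:4007384-4012806, GRCm38), the flavin-binding subunit where NADH is oxidised, was at 3728, 3752 and 3602 normalized counts in WT, 3736, 3770 and 3672 in Het and 3494, 3257 and 3599 in KO. The KO libraries lay below all others, although KO3 came within a few counts of WT3. The log2 fold change was -0.10 ± 0.05 (SE). Ndufa10, a supernumerary subunit, was at 2513, 2751 and 2633 in WT and 2214, 2484 and 2479 in KO, a log2 fold change of -0.14 ± 0.08. The groups did not overlap. Complex I gave 8 of the 13 members without overlap, among them Ndufa6, Ndufa7, Ndufa9, Ndufb8 and Ndufs7. The 3 members above 0 were Ndufs3, Ndufb4 and Ndufa4l2. Ndufb4 (WT mean 287) is uncertain, since a processed pseudogene of it, Ndufb4c, held a mean of 938 and reads may be split between them.

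The 4 subunits of complex II, which is also the succinate dehydrogenase of the citric acid cycle, had a median of -0.049, and all 4 were below 0. Sdha, the flavoprotein, was at 7086, 6897 and 6694 normalized counts in WT and 6672, 7044 and 6578 in KO, with overlapping groups and a log2 fold change of -0.03 ± 0.05. Sdhb, the iron-sulphur subunit, differed by -0.06 ± 0.07. The membrane anchors Sdhc and Sdhd differed by -0.10 ± 0.10 and -0.04 ± 0.05. No KO group of these 4 was separated from WT.

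Complex III had a median of -0.052, with 8 of 8 members below 0. Uqcrc1 (chr9:108936633-108949623), a core protein of the complex, was at 5448, 5294 and 5320 normalized counts in WT and 5000, 4843 and 5257 in KO. The groups did not overlap, and the log2 fold change was -0.09 ± 0.05. Uqcrfs1, the Rieske iron-sulphur protein, was at 2785, 2959 and 2821 in WT and 2753, 2474 and 2730 in KO, a log2 fold change of -0.11 ± 0.06. Only KO2 stood well apart from WT in this gene. Uqcr11, a small subunit, was the third without overlap, but only narrowly, with KO1 at 1549 and WT3 at 1551. The most abundant member per kilobase, Uqcrh, differed by -0.02 ± 0.08.

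Complex IV had a median of -0.062, with 9 of 13 members below 0. Cox6b1 (ENSMUSG00000036751, chr7:30616861-30626151), the small subunit that faces the intermembrane space and whose promoter stretch is printed above, was at 4185, 4169 and 4191 normalized counts in WT. It was at 3852, 3577 and 3951 in Het and at 3840, 3602 and 3926 in KO. The WT libraries agreed closely, and all 6 other libraries lay below them. In KO the level was 90.6% of WT, a log2 fold change of -0.14 ± 0.05 (SE; 95% interval -0.27 to -0.02), with an adjusted p of 0.9998 (limma, Benjamini-Hochberg). Cox7c, another small subunit, was at 2310, 2175 and 2093 in WT and 2125, 1911 and 2028 in KO. Its groups overlapped, at -0.12 ± 0.10. The members above 0 were Cox8a, Cox4i2, Cox6b2 and Cox7a2l, of which Cox4i2 and Cox6b2 are the scarce isoforms.

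Complex V had a median of -0.040, with 14 of 17 members below 0. All 5 subunits of the F1 part, where ATP is made, were below 0 (median -0.069). Of the peripheral stalk and membrane part, 9 of 11 subunits were below 0 (median -0.040). This division was again made after the values were seen. Atp5o (chr16:91925214-91931687), the stalk subunit that confers oligomycin sensitivity, was at 5215, 5228 and 5293 normalized counts in WT, 5301, 5072 and 5370 in Het and 5012, 4717 and 4976 in KO. KO lay below both other groups, at 93.4% of WT and a log2 fold change of -0.10 ± 0.05 against each. Atp5d, the delta subunit of the F1 part, was at 4506, 4371 and 4241 in WT and 4230, 4246 and 3956 in KO, at -0.08 ± 0.05, with KO2 just above WT3. Atp5b was at 29453 ± 1083 in WT and 28070 ± 358 in KO (mean ± SD of 3 libraries), at -0.07 ± 0.05. The 3 genes of subunit c, which encode the same mature protein of the rotor ring, differed by -0.05 ± 0.11 (Atp5g1), -0.04 ± 0.08 (Atp5g2) and -0.02 ± 0.07 (Atp5g3).

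**Figure D3:**
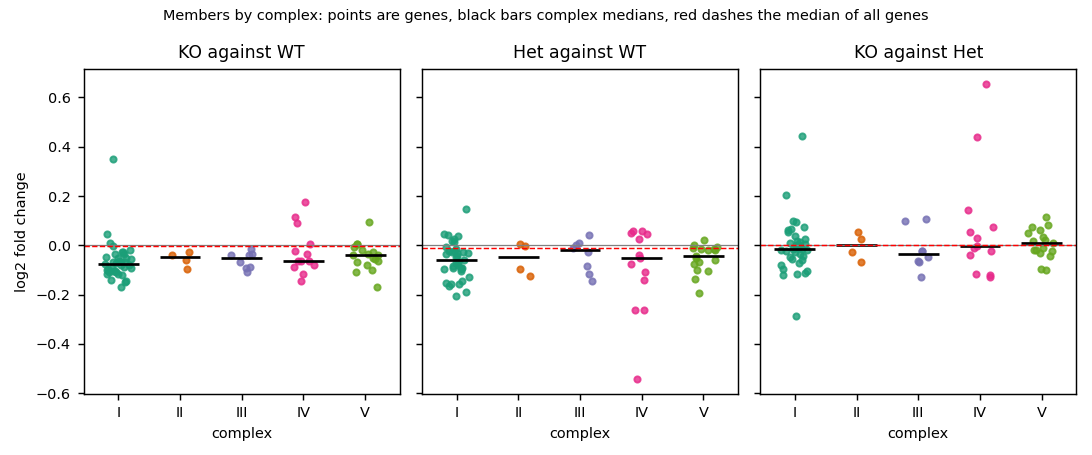
Each point is the log2 fold change (vertical axis) of 1 member, by complex, in the 3 comparisons; black bars are complex medians and the red dashed line is the median of all genes tested. In KO against WT the 5 medians lie between -0.075 and -0.040, and in KO against Het between -0.036 and 0.012.

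Some of these medians rested on single libraries. Without WT1, complex II was at -0.0081 and complex IV at -0.027. Without WT3, complex II was at -0.081 and complex III at -0.079, and without KO3 complex II was at -0.031. Complex V was at -0.013 without KO2 and at -0.077 without KO1. The median over all members stayed between -0.079 and -0.047 when any 1 library was left out. With sex as a covariate it was -0.087, with 72 of 79 members below 0. That fit reads sex from the Ddx3y level, and all 3 WT libraries were male. With log2(Cdhr1 + 1), the bulb marker, as a covariate it was -0.062, with 71 of 79 below 0.

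In Het against WT, the lower median of the members rested on 1 library. It was -0.045 for members and -0.0099 for all genes tested, and 61 of 79 members were below 0, against 53.8% of all genes. Without Het2 the median was 0.0015 and 39 of 79 were below 0; without Het1 it was -0.071. With limma and Benjamini-Hochberg adjustment 0 members were called, beside 0.0% of all genes, and no member had an adjusted p below 0.9998. At an unadjusted p under 0.05, 3 members were lower (Cox6b1, Cox7c and Ndufb5), beside 0.644% of all genes, and 0 were higher, beside 0.962%. Over the alternative settings the count of members in either direction ran from 0 (without WT2) to 10 (sex as a covariate). Every Het library lay below every WT library for 7 members (8.86%, against 3.31% of all genes): Atp5j, Cox6b1, Ndufb6, Ndufs5, Ndufs7, Sdhd and Uqcrb. For 0 members did every Het library lie above, against 3.36%.

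The complex medians in Het against WT were -0.058, -0.048, -0.019, -0.052 and -0.042 for complexes I to V. Without Het2 they were -0.00054 in complex I, -0.038 in complex II, 0.029 in complex III, 0.011 in complex IV and 0.013 in complex V. Cox7c was at 2139, 1653 and 1725 normalized counts in Het1 to Het3, so that Het2 and Het3 lay below all WT libraries and Het1 within their range. The log2 fold change was -0.26 ± 0.10 (SE). Ndufb5, a supernumerary subunit of complex I, showed the same arrangement, at 1772, 1936 and 1878 in WT and 1826, 1588 and 1493 in Het, at -0.19 ± 0.08. Cox6b1 was at 90.6% of WT in Het as in KO, at -0.14 ± 0.05, without overlap. Uqcrb, a small subunit of complex III, was at 1270, 1268 and 1355 in WT and 1242, 1110 and 1169 in Het, at -0.15 ± 0.07. Sdhd was at 2487, 2367 and 2288 in WT and 2235, 2198 and 2254 in Het, at -0.09 ± 0.05, and Atp5j, a stalk subunit, differed by -0.10 ± 0.06. The comparisons of Het and KO share the WT libraries, so that a WT value such as that of Cox6b1 enters both.

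In KO against Het, members were spread about 0. The median was -0.012 for members and 0.0016 for all genes tested, with 44 of 79 below 0, against 49.6%. It was -0.054 without Het2, 0.021 without Het3, 0.012 without Het1, -0.027 without KO1, 0.0090 without KO2 and -0.0060 without KO3, so that its sign depended on which library was left out. With limma and Benjamini-Hochberg adjustment 0 members were called, beside 0.0% of all genes, and no member had an adjusted p below 0.942. At an unadjusted p under 0.05, 1 member (Ndufa10) was lower, beside 2.17%, and 0 were higher, beside 1.42%. Deviations of same-numbered Het and KO libraries correlated for replicate numbers 1 and 3 (0.45 and 0.47). For number 2 the value was 0.10, below the 0.15 of Het2 with KO1. With the replicate number as a block (replicate block), 2 members had an unadjusted p under 0.05 and 0 were called. The median stayed at -0.012, and no member had an adjusted p below 0.673 (limma, Benjamini-Hochberg). Over the alternative settings the count at an unadjusted p under 0.05 ran from 1 to 5 (without Het2). Every KO library lay below every Het library for 5 members (6.33%, against 4.68% of all genes): Atp5o, Ndufa10, Ndufa6, Ndufs7 and Ndufv1. For 0 members did KO lie above throughout, against 3.15%.

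Ndufa10 (chr1:92439010-92473860) was at 2976, 2651 and 3136 normalized counts in Het and 2214, 2484 and 2479 in KO. Het1 and Het3 were above all WT libraries, KO was below them, and the KO to Het log2 fold change was -0.29 ± 0.08 (SE), with an adjusted p of 0.942 (limma, Benjamini-Hochberg). Ndufs7 (chr10:80249121-80256794), a core iron-sulphur subunit near the ubiquinone site of complex I, is named here because of its values. It was at 1437, 1437 and 1409 in WT, 1402, 1374 and 1408 in Het and 1341, 1370 and 1373 in KO. No pair of groups overlapped, and the means, 1428 ± 16.4, 1395 ± 18.1 and 1361 ± 17.4 (SD, n = 3 each), descended from WT to Het to KO. Between KO and WT the log2 fold change was -0.07 ± 0.05. The gaps between neighbouring groups were as small as 1 count between WT3 and Het3.

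**Figure D4:**
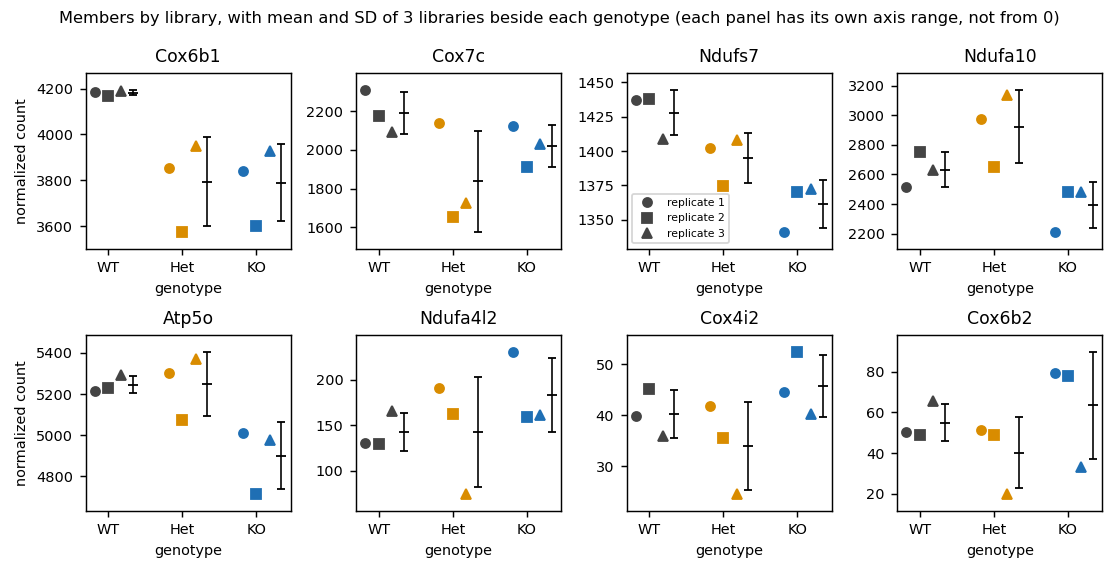
Normalized counts of 8 members by genotype, with a circle, square and triangle for replicates 1, 2 and 3 and the mean ± SD of 3 libraries beside them; each panel has its own axis range, which does not start at 0. The WT libraries of Cox6b1 lie above all 6 others, Ndufs7 descends from WT to Het to KO, and Het3 is the lowest library of Ndufa4l2, Cox4i2 and Cox6b2.

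The members encode mostly small proteins, and transcript length moved with the library differences. The median transcript length was 745 bases in the members and 2714 in all genes tested. In Het2 the median deviation from WT was -0.22 for the 27 members of at most 599 bases, -0.15 for the 26 of up to 980 bases and -0.11 for the 26 longer ones. Other protein-coding genes showed the same order: -0.14 for 173 genes of at most 599 bases, -0.094 for 762 genes of up to 980 bases and 0.0065 for 13484 longer genes. In KO2 the members' medians were -0.14, -0.10 and -0.096, and those of other genes -0.071, -0.063 and 0.0038. In both libraries the median of the members over 980 bases was below 0, and that of other genes of more than 980 bases was not. These 2 classes are not matched in length: the longest member has 2900 bases, while the genes tested reach 123179.

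**Figure D5:**
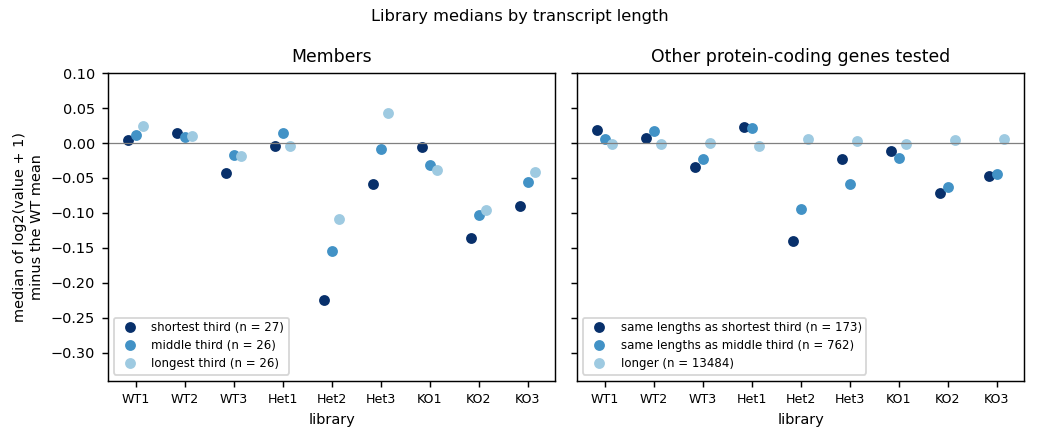
Median of log2(value + 1) minus the WT mean (vertical axis) in each library, for members (left) and other protein-coding genes tested (right) split at 599 and 980 bases of transcript length. In Het2 the shortest class is lowest in both panels, at -0.22 and -0.14.

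In KO against WT, other genes of at most 599 bases had a median log2 fold change of -0.045, with 113 of 173 below 0, and those of up to 980 bases also -0.045, with 496 of 762 below 0. Members in the same classes were at -0.088 and -0.058. Members over 980 bases were at -0.062 and all other protein-coding genes over 980 bases at -0.0016, a class not matched to the members in length. When each library's trend with transcript length, read from genes that are not members, was removed, the members' median was -0.030 in KO against WT, with 56 of 79 below 0. By complex it was then -0.043 in I, -0.0024 in III, -0.018 in IV and -0.010 in V. In Het against WT the median after removal was -0.012, with 46 of 79 below 0. Every KO library lay below every WT library for 14.8% of members of at most 599 bases and 6.36% of other genes of that length. In the class of up to 980 bases the shares were 7.69% and 7.74%. Above 980 bases, where lengths were not matched, they were 26.9% and 2.88%. What made short transcripts low in these libraries was not tested.

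The isoforms that vary by tissue were the most variable members. Ndufa4l2, a paralog of Ndufa4 that is induced by hypoxia and found in pericytes, was at 131, 130 and 166 normalized counts in WT, 191, 163 and 75.0 in Het and 231, 159 and 162 in KO. Cox4i2, the isoform of subunit 4 of lung and pericytes, was at 39.8, 45.1 and 35.9 in WT, 41.8, 35.6 and 24.7 in Het and 44.6, 52.4 and 40.2 in KO. Het3 was lowest in both. Cox6b2, an isoform first known from testis, was at 50.4, 49.1 and 65.5 in WT, 51.5, 48.9 and 20.2 in Het and 79.4, 77.6 and 33.3 in KO, with Het3 and KO3 lowest. Summed pericyte markers (7 of 7 in the table, none at 0) ranged from 7880 to 8966 in WT, 5233 to 10507 in Het and 8855 to 11468 in KO, and summed meningeal fibroblast markers (8 of 8, none at 0) from 8486 to 10466, 306 to 15426 and 9277 to 19093. Het3 was lowest in both sums. It was also lowest in each marker of both lists except the pericyte marker Higd1b. That gene was at 106 in Het3, 97.5 in WT2 and 95.1 in Het2. The part of pericytes and fibroblasts in the levels of these 3 isoform genes was not tested.

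The partner isoforms are the abundant, widely expressed forms. Cox4i1 was at 8103 ± 455 normalized counts in WT, 7826 ± 648 in Het and 7748 ± 97.4 in KO (mean ± SD of 3 libraries). Cox6a1, the non-muscle form of subunit 6A, was at 4905 ± 204, 5011 ± 459 and 4616 ± 286, and Cox7a2 at 2950 ± 131, 2812 ± 326 and 2904 ± 100. Cox8a was at 3680 ± 263, 3856 ± 547 and 3933 ± 479 and Ndufa4 at 3928 ± 147, 3888 ± 730 and 3541 ± 211. In each of these genes the genotype means differed by less than 2 times the larger SD, and Het2 was the lowest library in 4 of the 5. Atp5k, a small subunit of the ATP synthase membrane part and the most variable of complex V, ran from 1168 in Het2 to 1607 in Het3, with means of 1384, 1383 and 1385 in WT, Het and KO.

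The other genes of the pathway gave no called gene in any comparison (limma, Benjamini-Hochberg adjustment over all genes). In KO against WT the 13 protein-coding genes of the mitochondrial genome had a median of 0.0083, with 6 below 0. Assembly factors were at -0.0026 for complex I (7 of 14 below 0), -0.036 for II (3 of 4), -0.013 for III (3 of 6), -0.069 for IV (15 of 20) and -0.020 for V (2 of 3). Cox14, an assembly factor of complex IV, was at 990, 1023 and 1006 normalized counts in WT and 935, 908 and 890 in KO, without overlap, at -0.14 ± 0.06 (SE). Electron carriers and ubiquinone synthesis were at -0.044 (13 of 16 below 0), and cytochrome c (Cycs) differed by -0.15 ± 0.09. Pyruvate dehydrogenase and the citric acid cycle were at -0.038 (14 of 18), and carriers of ATP, ADP and phosphate at -0.060 (5 of 6). Regulators and mitochondrial gene expression were at -0.024 (12 of 19), where Polg, the mitochondrial DNA polymerase, differed by 0.15 ± 0.06.

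In Het against WT the mitochondrial genome was at 0.033 (5 of 13 below 0) and the citric acid cycle list at 0.0095 (7 of 18), while carriers of ATP, ADP and phosphate were at -0.061 (6 of 6). Tfam, which packages mitochondrial DNA and starts its transcription, had the smallest p of the regulators. It was at 1724, 1719 and 1323 normalized counts in WT, 1163, 1201 and 972 in Het and 1577, 1241 and 1518 in KO. Het lay below both other groups without overlap, at -0.51 ± 0.14 (SE) against WT with an adjusted p of 0.9998 (limma, Benjamini-Hochberg). The regulators as a list were at 0.031, with 5 of 19 below 0.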

How the data were processed

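The deposited values are a signal, since the authors scaled gene counts by size factors (from the header and the values). Salmon 0.11.2, R 3.6.0, DESeq2 1.19.11 and GRCm38 are listed, without roles, per the submitters' processing notes. Per the labels' protocols, a stranded kit that selects mRNA was used. Whole reads were not recovered, so the count test was replaced, as planned, by limma 3.58.1 (lmFit, eBayes with a trend; R 4.3.3) on log2(value + 1) of genes with a mean of at least 10, with 1 mean per genotype over 9 libraries, two-sided, and Benjamini-Hochberg adjustment over all genes at 0.05. The fit was tested on simulated data. Fold changes on this scale understate those of low genes. Approximate depth is a library's total divided by the step between its low values.

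Symbols, transcript lengths and coordinates came from GENCODE M21 (GRCm38). Of the 18820 gene IDs, 18783 had a symbol. The members, lists and tests were chosen with earlier results of these data known. Members named with values are those with the smallest p per complex and comparison (complexes I, III, IV and V), the highest and lowest per kilobase, the most variable, the Sdh genes and the isoforms, 32 in all, and others were named after their values were seen. The results of 1 member are counted but not reported here. Deviations of Het and KO libraries with the same replicate number correlated at 0.45, 0.10 and 0.47, and number 2 did not stand out from different-numbered pairs. The labels do not say what a number marks. From each pathway list the gene with the smallest p may be named. No set test was run. Markers of erythroid cells, muscle and brown fat were also read, and their summed values ranged from 27036 to 98775, 91.5 to 185 and 25.9 to 76.8 over the 9 libraries. Alternative settings, 21 listed at the start, covered pseudocounts, filters, scaling, the samples fitted, the replicate number, the trend, sex, Cdhr1 and each library left out, and 2 were added after the data were seen.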

Additional observations from a re-analysis of the deposited data

How the results depend on the processing

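Under all 23 alternatives 0 members were called in any of the 3 comparisons, and the members' median in KO against WT stayed below 0, between -0.087 (sex as a covariate) and -0.030 (transcript length trend removed). The members' median in Het against WT ran from -0.071 to 0.0015, and in KO against Het from -0.054 to 0.021. With sex as a covariate, the median of complex V in KO against WT moved from -0.040 to -0.087. With single libraries left out, complex I in Het against WT ran from -0.0995 to -0.00054, complex V in Het against WT from -0.071 to 0.013 and complex V in KO against Het from -0.052 to 0.026. With Het2 and KO2 left out together, complexes I and V in Het against WT were at -0.00054 and 0.013. The cause of these shifts was not tested.

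Deviations of same-numbered libraries correlated at 0.45, 0.10 and 0.47 between Het and KO. Different-numbered Het and KO libraries ran from -0.46 to 0.15 (Het2 with KO1), so that number 2 did not stand out as a pair. Het1 and KO1 also match in sex and in Cdhr1, as do Het3 and KO3, and the source of their correlation was not tested. Same-numbered pairs with a WT library ran from -0.074 to 0.25 and were not taken as pairs. With the replicate number as a block (replicate block), 0 members were called, the members' medians stayed at -0.062, -0.045 and -0.012 in KO against WT, Het against WT and KO against Het, and counts of genes at an unadjusted p under 0.05 rose from 178, 242 and 541 to 382, 493 and 984. Among the 32 named members, 12, 14 and 16 changed sign under some alternative in these comparisons, and 0 changed their call. The lowest adjusted p over all alternatives was 0.815, 0.840 and 0.428 (limma, Benjamini-Hochberg). The depth behind a value is known only approximately.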
